A study of Homo sapiens with 4 samples.

Results

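The 200 genes described here had low read counts in 1 of the 4 RNA-seq libraries, untreated replicate 2, and held their levels in the other 3. They were chosen by a rule on CPM (a gene's count divided by the library total and multiplied by 1e+06). Among the 10172 genes with at least 5 CPM in each of untreated replicate 1, doxorubicin replicate 1 and doxorubicin replicate 2, the lowest of these 3 values was divided by the CPM of untreated replicate 2 plus 0.1. The 200 genes with the highest ratio were taken, 1.97% of the 10172 genes and part of 59050 listed gene symbols. The ratio ran from 6.26 to 23.7 among the members, with a median of 8.05, and had a median of 1.08 among the 9972 other genes. These values chose the members and are given as a description.

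The libraries were labelled as HepG2, a hepatocellular carcinoma cell line, and each of the 2 groups had 2 libraries, described by the submitters as biological replicates. The untreated group received no drug, and the doxorubicin group was exposed to 1 µg/ml doxorubicin for 24 h, a DNA-damaging agent used to raise p53. The treatment tag of the doxorubicin libraries named a p53 miRNA in place of the drug, and the titles and protocols were followed. Messenger RNA was selected on poly-T beads and copied with random hexamers. The library totals were 36272180 and 28876633 counts in untreated replicates 1 and 2, and 34313603 and 27572740 counts in doxorubicin replicates 1 and 2.

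Untreated replicate 2 stood apart from the other 3 libraries. The correlation of log2 CPM across genes was 0.887 between the untreated replicates, 0.988 between the doxorubicin replicates, and 0.979 between untreated replicate 1 and doxorubicin replicate 1. Untreated replicate 2 had the lowest CPM of the 4 libraries in 55.1% of the 10172 genes and the highest in 30.03%. It lay at least 2-fold below the lowest other library in 22.2% of them. These genes had to reach 5 CPM in the other 3 libraries and not in untreated replicate 2. Genes low only there were kept and genes high only there were left out, so the choice itself tilts these shares. A count was found for 31258 genes in untreated replicate 2 and for 25734 to 27609 in the other libraries. The 11 blood cell markers summed to 20.3 CPM in untreated replicate 2, of which CD14 made up 16.7 CPM, and to 3.58 to 8.13 CPM in the others, and 3 to 5 of them were at 0 in each library. In the other libraries CD33 was the highest blood cell marker, at 1.82 to 5.95 CPM. Squamous and basal epithelial markers also summed highest in untreated replicate 2 (1953 against 1186 to 1772 CPM). So did neural markers (18.3 against 10.3 to 13.4 CPM). Simple epithelial, mesenchymal, endothelial and hepatocyte markers did not. KRT17, the highest squamous and basal marker in each library, was not itself highest in untreated replicate 2. It was at 1223 CPM there, 929 CPM in untreated replicate 1, and 1587 and 1322 CPM in doxorubicin replicates 1 and 2. The part of the markers of these cell types in the low values of the members was not tested. The hepatocyte markers went against the label in every library: albumin (ALB) was at 0 to 0.109 CPM, the 19 markers summed to between 19.7 and 36.2 CPM, and the transcription factor FOXA1 made up 15.8 to 19.9 CPM of that sum. Between 1 and 9 of the 19 markers were at 0, among them APOC3 in untreated replicate 2 and ALB, TTR and TF in untreated replicate 1. The libraries are therefore called by their labels only.

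The span of a gene is the stretch of genome between its annotated start and end. In most human genes the larger part of the span is intron, which is transcribed with the exons and removed by splicing, so that the mature transcript is much shorter than the gene. Genes of long span are known to encode many cytoskeletal and adhesion scaffolds, regulators of small GTPases, and large cofactors of transcription.

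The members had like levels in 3 libraries and were low in untreated replicate 2. Their median was 33.8 CPM in untreated replicate 1, 3.32 CPM in untreated replicate 2, 34.0 CPM in doxorubicin replicate 1 and 36.8 CPM in doxorubicin replicate 2. The 9972 other genes had medians of 40.5, 32.8, 42.2 and 44.8 CPM in the same order. The members together took 1.03% of the counts of untreated replicate 1, 0.105% of untreated replicate 2, 1.04% of doxorubicin replicate 1 and 1.07% of doxorubicin replicate 2. The median log2 ratio of untreated replicate 2 to the lowest other library was -3.01 over the members and -0.11 over the other genes. Among the other 3 libraries the highest member value was a median of 1.25-fold above the lowest, against 1.29-fold in the other genes. It stayed under 1.5-fold in 159 of the 200 members and reached 2-fold in 7. Only 1 library was low, so the difference has no replicate check, and in bulk RNA fewer cells of a type and less RNA per cell cannot be told apart.

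**Figure D1:**
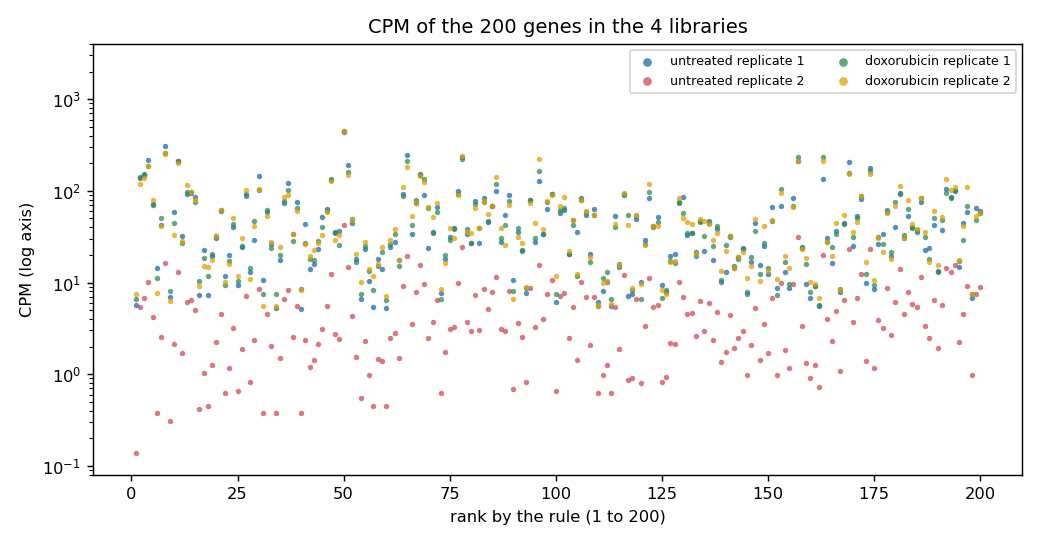
CPM (log axis) of each of the 200 members in the 4 libraries, with the members in order of the rule's ratio on the x axis and 1 point per library. The points of untreated replicate 2 lie below those of the other 3 libraries at every rank, as the rule sets, with medians of 3.32 against 33.8 to 36.8 CPM.

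**Figure D2:**
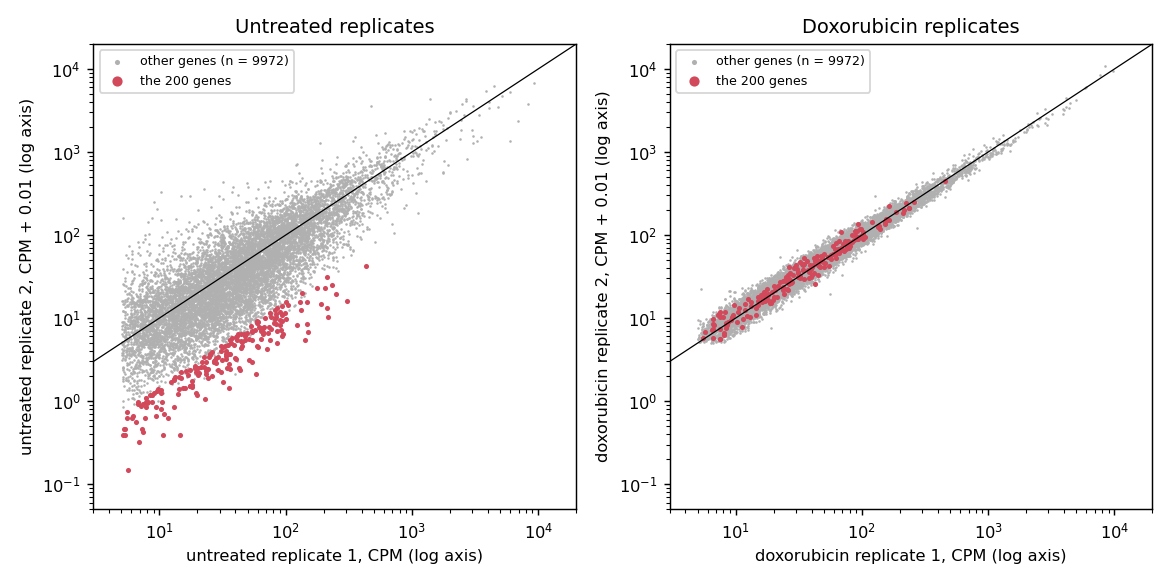
CPM of the 10172 genes in the 2 untreated libraries (left) and the 2 doxorubicin libraries (right), on log axes with the line of equal values, the 200 members in red. The members lie along the lower edge of the untreated cloud and on the line between the doxorubicin libraries.

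The counts behind the low values were mostly well above the detection limit. The members had a median of 96 counts in untreated replicate 2, 97 of the 200 had at least 100 counts, and 17 had under 20. The lowest was the clone-named gene AC055811.4, first in the ranking, with 4 counts in untreated replicate 2 (0.139 CPM, exact Poisson 95% interval 0.0377 to 0.355 CPM, counting error only) and 5.65, 6.59 and 7.47 CPM in the other libraries. The last 5 members were CARMIL1, BIRC3, CDK20, KANK1 and CCNY with ratios of 6.31 to 6.26. The next 5 genes in the ranking, just outside, were ACSF3, RPS6KC1, WDFY3, TARS2 and the nuclear long noncoding RNA NEAT1, with ratios of 6.25 to 6.23.

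After the clone-named AC055811.4, the next 2 genes in the ranking were tensins. TNS1, which encodes a tensin that links integrins to actin, was at 143 CPM in untreated replicate 1, 5.47 CPM in untreated replicate 2, and 138 and 119 CPM in the doxorubicin libraries. TNS4, a short tensin without the actin-binding part, was at 149.8, 6.75, 152 and 137 CPM in the same order. Both lay more than 20-fold below the lowest other library (21.7-fold and 20.3-fold), and neither doxorubicin library differed much from untreated replicate 1. AFAP1, an actin filament adaptor that binds Src, was at 308, 16.1, 259 and 252 CPM. TNS3, the third tensin among the members, was at 146, 8.59, 102 and 104 CPM. The fourth tensin, TNS2, was at 22.0, 8.14, 25.2 and 23.4 CPM and ranked 1414. In all, 18 members were scaffolds or regulators of focal adhesions and actin, with PTK2 (focal adhesion kinase), ROCK2 (a kinase that drives actomyosin contraction), LPP and SVIL among them. Their ratios ran from 6.27 to 21.3 with a median of 7.89, against 8.05 over all members.

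Cofactors of transcription and chromatin were the largest of the 11 function groups into which 139 members were sorted by hand after the members were known. This group held 27 genes with ratios of 6.39 to 17.9. TBL1X, an exchange factor of the NCoR corepressor complex, was at 217 CPM in untreated replicate 1, 10.2 CPM in untreated replicate 2, and 185 and 187 CPM in the doxorubicin libraries. Its paralog TBL1XR1 was a member as well, at 36.9, 4.95, 33.7 and 45.2 CPM. RERE, a corepressor of the atrophin family, was at 211, 13.2, 214 and 200.2 CPM, and CDYL2, a chromodomain protein, was at 93.2, 6.13, 97.7 and 117 CPM. Both myocardin-related coactivators of SRF were members, MRTFA with a ratio of 8.43 and MRTFB with 8.23. Further members were the histone methyltransferases EHMT1 and KMT2C, the demethylase KDM4B, the deacetylase HDAC4 and the PRC2 subunit JARID2. The remaining 61 members were placed in no group. Only members were sorted, and the share of each function among all eligible genes was not counted. The size of a group is therefore not read as particular to the members.

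The 17 DNA-binding factors ran from ZNF609 to TCF7L2, the effector of Wnt signalling. ZNF609 was at 71.2 CPM in untreated replicate 1, 4.19 CPM in untreated replicate 2, and 70.3 and 78.8 CPM in the doxorubicin libraries. Other zinc finger genes were ZNF521, at 7.36, 0.416, 10.3 and 9.07 CPM, and ZNF512B, at 63.7, 5.58, 60.1 and 59.1 CPM. GTF2IRD1, a TFII-I family factor, was at 95.7, 6.41, 97.8 and 96.2 CPM. These 4 genes took different shares of the reads and had ratios between 10.4 and 16.4. TEAD1, the DNA-binding partner of YAP, and NFIC, a nuclear factor I protein, took many reads: TEAD1 was at 235, 24.7, 222 and 241 CPM, and NFIC at 249, 19.5, 211 and 184 CPM. The group also held the nuclear receptor RXRA, the hedgehog effector GLI2 and KLF12, a Kruppel-like repressor.

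Signalling enzymes, GTPases and regulators of GTPases made up the next groups. The 21 GTPases and GTPase regulators had ratios of 6.61 to 12.1. They included the RAS inhibitor NF1 at 66.1, 6.37, 59.2 and 74.3 CPM, the exchange factors VAV2 and AKAP13, and the RAC activator DOCK1. RAB27B, RHOT1 and GNAZ of this group are GTPases themselves. Among 14 protein and lipid kinases, MAPK4, an atypical MAP kinase, was the most extreme at 58.2, 2.11, 45.2 and 33.4 CPM. PIK3CB, a catalytic subunit of PI 3-kinase, was at 40.7, 3.19, 43.5 and 50.9 CPM. PTPN3, a FERM-domain tyrosine phosphatase, was at 32.0, 1.70, 26.9 and 28.7 CPM. All 3 SH3RF ubiquitin ligases were members, and SH3RF3 was at 22.9, 1.04, 18.6 and 15.3 CPM. They were part of 10 ubiquitin pathway genes that also held the F-box protein BTRC, the Wnt receptor ligase ZNRF3 and the apoptosis inhibitor BIRC3. The cyclic nucleotide phosphodiesterases PDE1A, PDE7B and PDE3A were members with ratios of 10.2, 8.42 and 8.21.

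Smaller groups were 10 genes of membrane traffic and lipid transfer, and 8 of microtubules, centrosomes and motors. A further 7 act on RNA or, in the case of BRF1, on its synthesis. The last 4 were WWC and MOB family genes, grouped under the Hippo pathway. GRAMD1B, a carrier of cholesterol to the endoplasmic reticulum, had the most reads of all members, at 436 CPM in untreated replicate 1, 42.7 CPM in untreated replicate 2, and 454 and 449 CPM in the doxorubicin libraries. ANKRD11, a chromatin regulator, was at 211, 31.1, 234 and 213 CPM. Per kb of transcript, the mean over the 3 libraries other than untreated replicate 2 was 35.8 CPM for TNS4, 35.4 for AFAP1, 27.8 for TBL1X and 2.70 for TTC28, a midbody and spindle protein. High and low expression per length were thus both present at the top of the list. WWC1 (KIBRA), an activator of the Hippo kinases, was at 192, 14.8, 162 and 151 CPM, and its paralog WWC2 was also a member. AGO2, the slicer of RNA interference, was at 206, 23.1, 155 and 154 CPM. CEP192, a scaffold of centrosome maturation, was at 22.4, 2.56, 22.4 and 27.1 CPM. The top 20 were completed by SH3TC1, KIAA1671, FRMD3, FAM20C (the kinase of secreted proteins), TTC28, NPY4R and the clone-named AC138028.4, with ratios of 13.1 to 15.99.

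Of 39 lists of pathway and cell type genes, 35 held no member and 4 held 1 each. Of all eligible genes 1.97% were members, most lists had too few eligible genes for a member at that share, and the blood, endothelial and neural lists had 0 eligible genes, so nothing is read from these counts. The 4 were TEAD1 in the list of YAP and TEAD targets, CEP192 among centrosome genes, KLF12 among Kruppel-like factors and SLC2A3, the glucose transporter GLUT3, among hypoxia and glycolysis genes. The highest median span of a list was 105 kb, for integrins, laminins and collagens. The 27 eligible p53 targets held 0 members, a count near the share of 1.97%, and their median log2 ratio of untreated replicate 2 to the lowest other library was 0.74 with a median span of 14.4 kb. The 16 eligible HOX genes had a median of 1.42 and a median span of 5.90 kb, and the 46 ribosomal protein genes a median of 0.56 and a span of 5.68 kb. The median log2 ratio over all 10172 genes was -0.14. These lists share the same libraries as the rule, so their values are a description.

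Most members were long genes, a property that the rule did not use. An annotation (GENCODE 44) was matched for 191 members, and the other 9 were clone-based symbols without a match. The median span of the 191 was 195 kb (quartiles 123 to 285 kb), against 33.0 kb (13.4 to 76.1 kb) in the 9787 other annotated genes. A span of at least 100 kb was found in 154 of 191 members (80.6%) and in 18.1% of the others, and a span of at least 200 kb in 93 members (48.7%) and 5.95% of the others. The longest members were LPP with 737 kb, TTC28 with 702 kb, the teneurin TENM3 with 659 kb, AGAP1 with 638 kb and DOCK1 with 547 kb. Counting only the canonical transcript from its first to its last exon, the medians were 184 and 28.1 kb. Genes are not replicates, and no test of these differences was made.

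**Figure D3:**
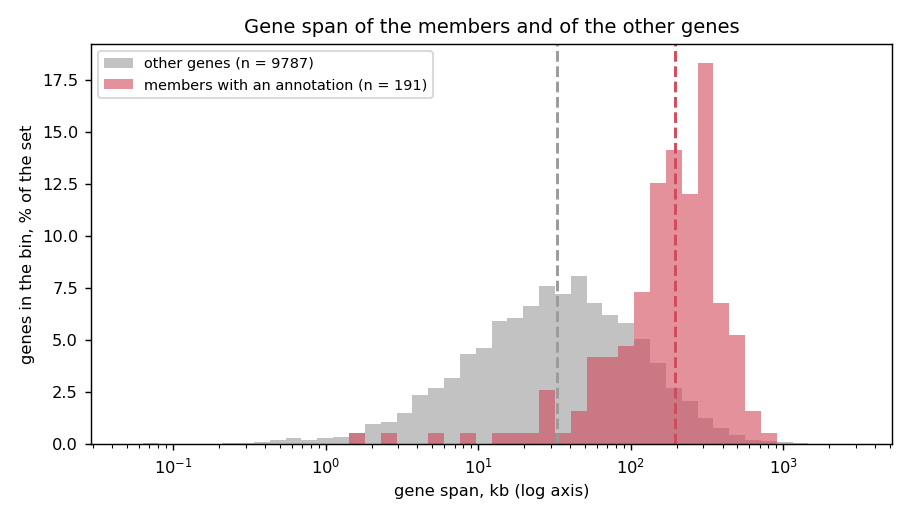
Gene span in kb (log axis) of the 191 annotated members and the 9787 other annotated genes, as the percent of each set in each bin, with dashed lines at the medians. The members centre on 195 kb and the other genes on 33.0 kb, and the distributions overlap.

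Most of the span lay outside the exons of the canonical transcript. Such bases made up a median of 96.7% of a member's span and 89.7% in the other genes. They include any span beyond that transcript as well as its introns. The longest intron had a median of 68.3 kb in members and 8.79 kb in the others, and the first intron 40.3 and 3.80 kb. In RERE the first intron was the longest at 161 kb, in SH3RF3 it was 218 kb, and in TTC28 the longest intron was 323 kb. Mature transcripts differed less, with a median of 6.80 kb in members and 3.93 kb in the others. The coding sequence had medians of 2.63 and 1.35 kb, and the exon number had medians of 17 and 9. The GC content of the transcripts was nearly the same at 48.7% and 48.0%. By class, 190 of the 191 annotated members were protein-coding (99.5%, against 96.4% of the others) and 1 was a long noncoding RNA, KRT7-AS.

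The share of members rose with span and levelled off in the longest genes. Of genes under 10 kb, 4 of 1864 were members (0.215%), and of genes of 10 to 20 kb, 2 of 1586. The share was 1.13% at 50 to 100 kb, 4.88% at 100 to 200 kb, 14.3% at 200 to 400 kb and 12.0% at 400 kb or more. The genes that were not members followed the same order. Their median log2 ratio of untreated replicate 2 to untreated replicate 1 was 0.39 under 10 kb, 0.16 at 10 to 20 kb, -0.16 at 20 to 50 kb, -0.66 at 50 to 100 kb, -1.15 at 100 to 200 kb, -1.44 at 200 to 400 kb and -1.47 at 400 kb or more. A shift with span was thus present outside the members as well. In doxorubicin replicate 1 the same medians lay between 0.04 and 0.06 in every class. In doxorubicin replicate 2 they were -0.04 under 10 kb and 0.23 at 100 to 200 kb, a smaller shift in the opposite direction.

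**Figure D4:**
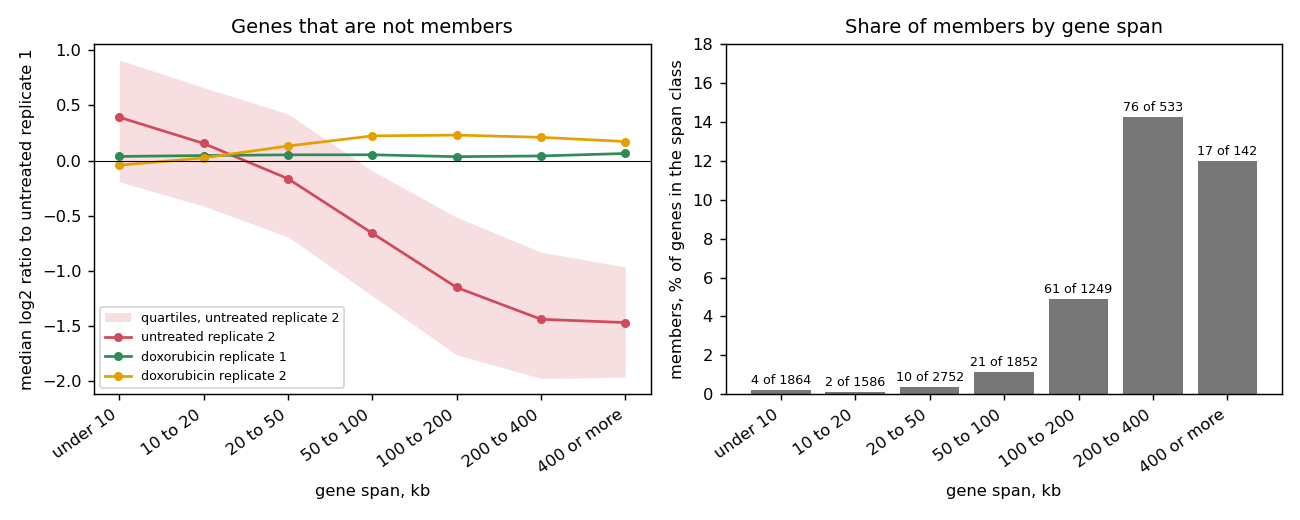
Left, median log2 ratio to untreated replicate 1 of the genes that are not members, by gene span class in kb, for the other 3 libraries, with the quartiles of untreated replicate 2 shaded. Right, members as the percent of the genes in each span class, with the counts above the bars: untreated replicate 2 falls from 0.39 to -1.47 while doxorubicin replicate 1 stays at 0.04 to 0.06.

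Over the 9787 other genes, the Spearman correlation of span with the log2 ratio of untreated replicate 2 to untreated replicate 1 was -0.523. The correlation was -0.482 for the longest intron, -0.381 for the exon number, -0.351 for transcript length and 0.162 for GC content. With the ratio of doxorubicin replicate 1 to untreated replicate 1 the correlation of span was -0.001, and with that of doxorubicin replicate 2 it was 0.210, where GC content had -0.428. These are correlations across genes that share libraries, and they carry no p-value. The ratio fell with span in genes with long and with short transcripts. Among genes with transcripts above the median of 3.93 kb, the median log2 ratio was -1.34 at spans of 100 kb or more and -0.09 under 50 kb, and among genes with shorter transcripts it was -0.92 and 0.18.

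Families with long and short genes gave a closer view. TEAD1 spans 270 kb, while TEAD2 (21.9 kb), TEAD3 (23.5 kb) and TEAD4 (81.3 kb) were not members. TEAD3 was at 44.03 CPM in untreated replicate 1, 83.1 CPM in untreated replicate 2, and 49.2 and 49.98 CPM in the doxorubicin libraries, the opposite order to TEAD1. Of 26 eligible kinesin genes, KIF21B (54.3 kb), KIF13A (228 kb) and KIF16B (301 kb) were members, and the other 23 had a median span of 57.4 kb and none above 195.8 kb. Among the 9 phosphodiesterase genes the members spanned 320 to 383 kb. The ranking did not follow length throughout. The longest phosphodiesterase gene, PDE4D with 1553 kb, was at 26.7, 8.17, 25.1 and 25.7 CPM and ranked 1099. PDE10A, with 661 kb, ranked 3589. In the nuclear factor I family the member NFIC (155 kb) was shorter than NFIA (598 kb, rank 238) and NFIB (317 kb, rank 3523).

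**Figure D5:**
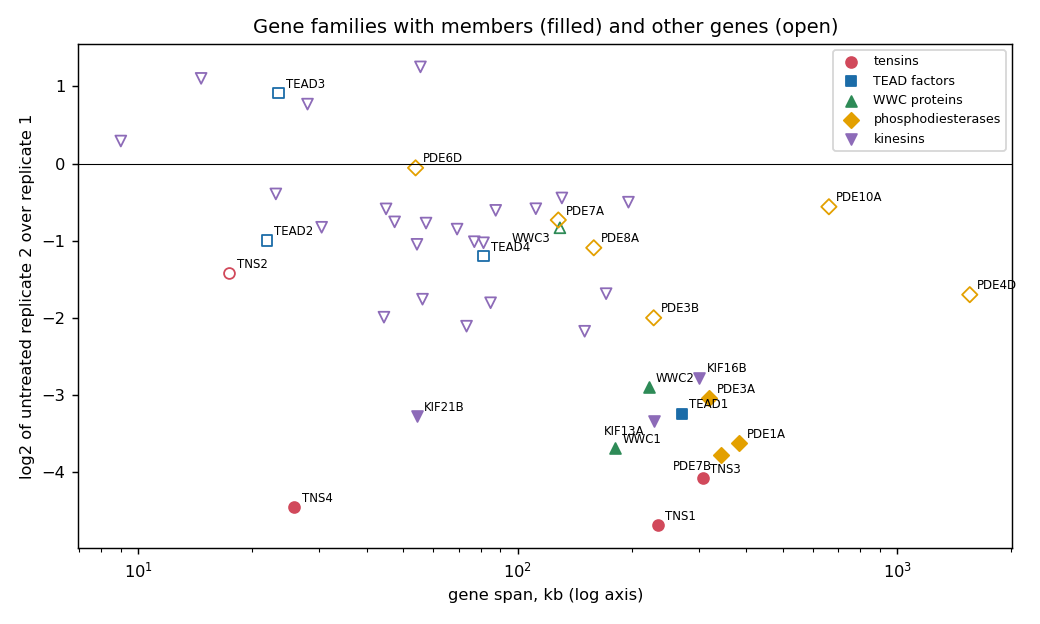
Log2 ratio of untreated replicate 2 to untreated replicate 1 against gene span in kb (log axis) for 5 families, with members as filled and other eligible genes as open symbols. TNS4 (25.8 kb) and KIF21B (54.3 kb) are the shortest of the members shown, and PDE4D (1553 kb) and PDE10A (661 kb) are long genes outside the list.

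Not all members were long, and not all long genes were members. Of the 675 eligible genes of at least 200 kb, 93 were members, and 20 had their highest level in untreated replicate 2. Most long genes outside the list were still lowest in untreated replicate 2, 92.1% of those of 200 to 400 kb and 91.2% of those of 400 kb or more. SLIT2, a guidance ligand of 369 kb, was at 44.2 CPM in untreated replicate 1, 106 CPM in untreated replicate 2, and 27.5 and 33.3 CPM in the doxorubicin libraries. The cyclin CCNG2 (276 kb) was at 8.30, 77.3, 26.0 and 33.7 CPM, and the protocadherin PCDH9 (928 kb) at 8.02, 18.6, 7.26 and 6.49 CPM. In the other direction, 11 annotated members spanned under 30 kb. They were TNS4, NPY4R, KRT7-AS, ZNF512B, C11orf86, ASB13, TMEM184A, GPRC5B, MOB3A, BIRC3 and CDK20.

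Some of the short members share sequence with another gene, which limits what their counts say. KRT7-AS lies on the opposite strand of the keratin gene KRT7, and the sources used here do not state whether counting used the strand. KRT7-AS was at 13.04 CPM in untreated replicate 1, 0.831 CPM in untreated replicate 2, and 14.6 and 11.03 CPM in the doxorubicin libraries. KRT7 itself was not low, at 2468, 2455, 2487 and 2064 CPM. NPY4R, a receptor of pancreatic polypeptide, was at 14.5, 0.381, 11.2 and 7.69 CPM, and its near-identical copy NPY4R2 at 4.16, 0.104, 4.40 and 3.41 CPM, so reads of the 2 genes may be split uncertainly. Over all annotated members, 26 of 191 (13.6%) overlapped a protein-coding gene on the opposite strand, against 28.8% of the other genes.

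The members were spread over the genome. They lay on 23 chromosomes, with 8 of 154 eligible genes on chromosome 18 (5.19%) and 3 of 602 on chromosome 19 (0.498%). Only 6 pairs of members were neighbours among the eligible genes, and no run held more than 2. The pairs were AFAP1 with SH3TC1, AGO2 with PTK2, BRSK2 with MOB2, CDK20 with SPIN1, GLI2 with CLASP1, and TLK2 with TANC2.

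Promoter windows of 300 bases, from 250 before to 50 after the gene start (RefSeq, GRCh38.p14), were found for 157 members and 7951 other genes. Their GC content had a median of 69.3% in members and 66.0% in the others, and the CpG ratio of observed to expected was 0.857 and 0.860. The GC box GGGCGG, searched on both strands, was in 75.2% of member windows, 72.8% of the others and 44.6% of all 27305 windows of the table. The ETS core CCGGAAG, searched on both strands, was in 8 of the 157 member windows (5.10%), in 21.7% of the others and in 10.7% of all windows. By span, with no test made, it was in 14.6% of 1478 other genes of at least 100 kb, in 23.3% of 6473 shorter ones, and in 6.20% of 129 members of at least 100 kb. The CCAAT box was in 28.7% and 37.3% of member and other windows, and the TATA box TATAAA in 5.10% and 4.89%. A match is a description of letters in the window and not a binding site. The windows of AFAP1, with 7 GC box matches and no ETS core, and of ZNF609, with an ETS core and no GC box, show the 2 kinds, the matches in capitals and both written 5′ to 3′ on the strand of the gene. AFAP1 lies on the minus strand at chr4:7939812-7940111 and ZNF609 on the plus strand at chr15:64460328-64460627.
AFAP1: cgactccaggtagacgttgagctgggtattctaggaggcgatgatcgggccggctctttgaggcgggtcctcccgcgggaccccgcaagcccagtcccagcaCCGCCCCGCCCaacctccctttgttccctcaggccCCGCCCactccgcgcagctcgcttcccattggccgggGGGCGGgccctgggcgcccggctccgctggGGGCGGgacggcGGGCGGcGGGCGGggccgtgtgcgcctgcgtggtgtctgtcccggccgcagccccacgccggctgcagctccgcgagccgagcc
ZNF609: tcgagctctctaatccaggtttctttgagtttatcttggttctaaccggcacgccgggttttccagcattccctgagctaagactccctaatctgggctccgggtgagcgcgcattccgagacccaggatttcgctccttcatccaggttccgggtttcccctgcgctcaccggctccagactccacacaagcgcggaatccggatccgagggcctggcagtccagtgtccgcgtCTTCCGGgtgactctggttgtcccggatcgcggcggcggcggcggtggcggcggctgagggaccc

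Doxorubicin was compared with untreated replicate 1 alone, since the rule sets untreated replicate 2 low in the members. The 3 libraries compared are part of the rule as well, which takes the lowest of their values. A low value in any of them makes a gene less likely to be a member. The member values that follow are therefore a description, and a doxorubicin effect free of this choice was not tested. The median log2 ratio of the doxorubicin mean to untreated replicate 1 was 0.06 over the members and 0.09 over the other genes. Both doxorubicin libraries lay above untreated replicate 1 in 92 members (46%, against 47.2% of the others) and below it in 61 (30.5%, against 30.3%). TMM scaling, which corrects library sizes for composition, shifted the median of all eligible genes by -0.16 and put the members at -0.10 and all eligible genes at -0.07, so the sign of these medians depends on the scaling. The edgeR quasi-likelihood fit without untreated replicate 2 called 4.44% of 18356 genes at an adjusted p of 0.05 and an absolute log2 change of 1, with 3.88% higher and 0.556% lower. It called 3 of the 200 members. That share is over all genes tested and not the eligible ones alone. Among eligible genes, both doxorubicin libraries were at least 2-fold above untreated replicate 1 in 2 of 200 members and 151 of 9972 others, and at least 2-fold below it in 1 member and 15 others, so the members were near the share of the other genes. The untreated side of that fit is 1 library, which is taken to vary like the doxorubicin pair.

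SLC2A3 had the highest doxorubicin ratio of the members. It was at 7.17 CPM in untreated replicate 1, 0.866 CPM in untreated replicate 2, and 54.6 and 42.8 CPM in the doxorubicin libraries. The log2 change in the fit without untreated replicate 2 was 2.62 (SE 0.29, edgeR adjusted p = 1.1e-15), and reads may be shared with its close paralog SLC2A14. ARNT2, a bHLH-PAS partner factor, was at 23.5, 2.46, 64.6 and 67.5 CPM, with a log2 change of 1.34 (SE 0.26, edgeR adjusted p = 2.92e-05). MAP2K6, the kinase that activates p38, was at 35.7, 1.42, 11.8 and 12.5 CPM, with a log2 change of -1.71 (SE 0.26, edgeR adjusted p = 6.68e-09). In these 3 genes both doxorubicin libraries lay on 1 side of untreated replicate 1, and untreated replicate 2 was below all of them. The libraries of this fit also took part in choosing the members, so its p-values for members are a description. The next highest ratios were those of KLF12 (5.35, 0.450, 8.28 and 11.7 CPM), FRMD3 (7.28, 0.450, 11.9 and 14.9 CPM) and the hexokinase-like HKDC1 (13.1, 1.77, 25.4 and 22.2 CPM). The next lowest were RAB11FIP3, SLC45A4, C11orf86 and PIK3C2B, with log2 ratios of -0.70 to -0.66. None of these 7 genes passed both limits. In edgeR, SLC45A4 (adjusted p = 0.0164), C11orf86 (0.0185) and PIK3C2B (0.0146) passed the p limit and missed the fold limit. RAB11FIP3 (0.0627), HKDC1 (0.097), FRMD3 (0.136) and KLF12 (0.152) missed both.

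The edgeR fit of both untreated against both doxorubicin libraries likewise used libraries that chose the members. In it 0 of 17479 genes were called (0%) and 768 had an unadjusted p under 0.05. DESeq2 called 89 genes. None of the 200 members was called by edgeR, and 1 had an unadjusted p under 0.05, while DESeq2 called 1. The fitted log2 change was above 0 in 199 of the 200 members, with a median of 0.74 against 0.01 over all genes tested. Each of these fitted changes includes the low level of untreated replicate 2. Without untreated replicate 1, untreated replicate 2 alone stood for the untreated cells. The fitted log2 change was then above 0 in all 200 members, with a median of 3.23 against 0.03 over all genes tested. The rule itself sets this for the members.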

How the data were processed

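The deposited files held counts per gene symbol for 4 libraries. Per the submitters' processing notes and the study's methods, the authors aligned reads with HISAT2 to hg38 and counted them with HTSeq. Headers named GENCODE release 31, and their column layout was that of featureCounts. Strandedness is not given in the sources used here. CPM were computed from column totals. Counts were tested with edgeR 4.0.16 (R 4.3.3; quasi-likelihood, TMM, filterByExpr, Benjamini-Hochberg, adjusted p of 0.05 and absolute log2 change of 1), and DESeq2 1.42.0 was an alternative. The edgeR step was checked on simulated counts of 4 alike libraries with known changes. No simulated library stood apart, so the check does not cover a library like untreated replicate 2 or a fit with 1 untreated library.

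Members, gene lists and tests were chosen with earlier results of these data known, and function groups after the members were known. Named were the top 20, the ranks at the limit, the 5 with most reads, the 5 highest and lowest in doxorubicin, list members, families of 3 or more members and runs. Genes outside this rule, including smaller families, other members of the function groups, short and longest members, and genes for contrast, were named after their values were seen. Spans came from GENCODE 44 by symbol (36718 by current and 772 by older symbol). Intervals cover counting error only, and p-values measure the spread between these libraries.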

Additional observations from a re-analysis of the deposited data

How the results depend on the processing

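Of the genes in the top 200, 130 were members when the minimum was 20 CPM, and the top 100 held 100. The median log2 ratio of untreated replicate 2 to the lowest other library was -2.89 with TMM-scaled library sizes, -2.62 with a constant of 1 CPM, -3.10 with a minimum of 1 CPM, -2.76 with a minimum of 20 CPM, -3.23 with the median of the 3 libraries, -3.34 for the top 100, and -3.24 to -3.05 when 1 of the other libraries was left out. The median doxorubicin ratio was -0.069 with TMM on members chosen anew, 0.11 with the median of the 3 libraries, and 0.036 to 0.23 with 1 library left out, highest without untreated replicate 1. The rule cannot be applied without untreated replicate 2. Median transcript length moved by less than the spread over the members, median span was 195 kb, and over the 10 settings of the rule it ran from 177 to 202 kb.

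The count of genes called for doxorubicin was 0 with other scalings and without the filter, 89 with DESeq2, and 0 to 8697 with 1 library left out: 8697 without untreated replicate 1 and 815 without untreated replicate 2. For the members the count was 1 of 200 with DESeq2, beside 89 of 17479 genes tested. With 1 library left out, a group has 1 library, and the rule sets untreated replicate 2 low in the members. No member count of those fits is used here. With the replicate number as a block, 20 of 17479 genes and 1 of 200 members were called. In edgeR, 98 members had an unadjusted p under 0.05 with the block and 1 without it, beside 1073 and 768 of all genes tested. Same-numbered libraries deviated together with a correlation of 0.0219. The untreated deviations include untreated replicate 2, which stood apart, so this value cannot decide whether the numbers pair the libraries. The main fit did not pair them. Depth limits the values of the 17 members with under 20 counts in untreated replicate 2.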
